A study of Homo sapiens with 2 samples.

Results

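The late replicating nascent strand intervals are the stretches of U2OS chromosomes that were enriched for short newly made DNA in early S phase and that the authors placed in the late class of a 6-class scale of replication timing. They were taken from the authors' list for that class, 1 interval per name, on chromosomes 1 to 22 and X. This gave 9012 of the 161770 named intervals, or 5.57% (exact 95% binomial interval 5.46% to 5.68%, counting error only). They covered 6.20 of 142.6 Mb, which was 4.34% of the sequence in intervals. The choice used the class label and no measured enrichment or width. U2OS is an established osteosarcoma cell line. It was labelled wild type and grown as 2 nascent strand libraries, replicates 1 and 2, which form 1 group. Cells were held at the border of G1 and S by a double thymidine block and collected 2 hours after release. No other time was sampled, so what this early time adds to the share, spacing and fold of the late class was not tested. The authors deposited both libraries as 1 intersected set, and no label says whether they came from separate cultures, so each error below is a spread between chromosomes and not between biological replicates.

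Chromosomal DNA is copied in a fixed order during S phase, in stretches that hold many replication origins each. Late stretches are known for compact chromatin, few genes, contact with the nuclear lamina and sparse origin firing, and common fragile sites often lie in them. Nascent strands carry an RNA primer at their start, and that primer shields them from lambda exonuclease, so the DNA left after digestion marks sites of initiation. The label late comes from timing data whose origin and thresholds no label states, so the match between that label and the timing in these cultures was not tested. The number of reads behind each interval is unknown. All positions are in hg19. Neither the genes, repeats and base composition there nor the copy number of this cell line was analysed here.

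Late intervals were short and modestly enriched. Their median width was 450 bp, with quartiles of 252 and 817 bp, and they ranged from 90 to 14296 bp. The median fold enrichment was 4.42, with quartiles of 3.63 and 5.79 and a range of 2.43 to 169.8. This fold is the authors' value for the peak of replicate 1 whose pieces shared with replicate 2 cover most bases of the interval. Of the 9012 intervals, 7 held no such piece. The −log10 q of the same peaks, also the authors' value, had a median of 4.50 and a lowest value of 1.31. The distance to the nearest interval of any class had a median of 2571 bp, with quartiles of 807 and 13168.5 bp. A wide spread in spacing therefore ran beside narrow spreads in width and fold. Intervals under 200 bp made up 15.3% of the late class (1380 intervals), against 11.4% of all 161770. Those of 3 kb or more made up 1.94% (175 intervals), against 3.94% of all. Those at least 100 kb from any neighbour made up 6.28% (566 intervals), against 1.24% of all.

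**Figure D1:**
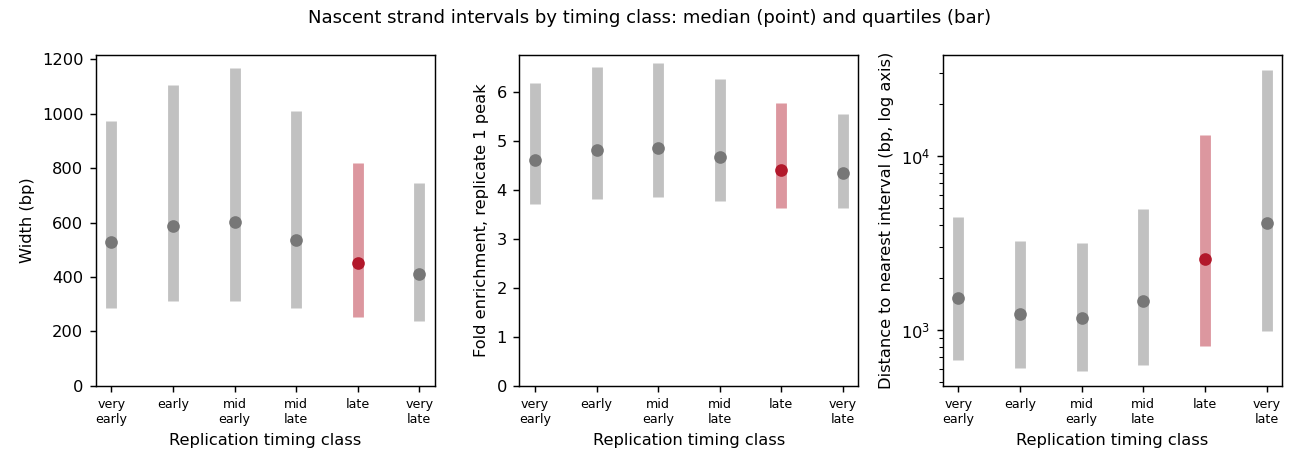
Width in bp, fold enrichment of the replicate 1 peak and distance in bp to the nearest interval of any class (log axis), for the 6 timing classes from very early to very late; points are medians over intervals, bars run between the quartiles, and the late class is in red. The late medians of 450 bp and 4.42-fold lie below those of the 4 earlier classes and above those of the very late class, and the late distance of 2571 bp lies above the 4 earlier classes and below the 4115 bp of the very late class.

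Set against the other 5 classes pooled, late intervals were narrower, less enriched and farther from their neighbours. Per-chromosome median widths were 450 ± 55.0 bp in the late class and 555 ± 73.7 bp in the other classes (mean ± SD over 23 chromosomes), or 0.813-fold, and late intervals were narrower on 21 of 23 (permutation test by two-sided sign flips over chromosomes, adjusted p = 6.67e-05). The fold enrichment was 4.44 ± 0.18 in the late class and 4.73 ± 0.19 in the other classes, lower on 22 of 23 chromosomes (permutation test, adjusted p = 8.89e-05). Nearest-neighbour distance, again taken as a median per chromosome, had a median over chromosomes of 2589.5 bp in the late class and 1480 bp in the others, and it was 2.12-fold longer on average and longer on 21 of 23 (permutation test, adjusted p = 6.67e-05). The value of 6.67e-05 belongs to the smallest p that the resampling can give. It adjusts for the 20 comparisons planned for this class.

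Against the mid late class alone, the step just before it in the timing order, the late class was lower in width and fold on nearly every chromosome. Late widths were 0.839-fold those of mid late intervals, with a log2 difference of −0.25 ± 0.034 (SE, n = 23 chromosomes). Late folds were 0.948-fold, lower on 22 of 23 chromosomes (permutation test, adjusted p = 8.89e-05 for both). With only peaks at a −log10 q of 5 or more the log2 difference in fold was −0.035 in place of −0.077, lower on 16 of 23 (permutation test, adjusted p = 0.0265), and against the other 5 classes it was −0.040 in place of −0.091 (adjusted p = 0.0101, permutation test). That cut acts on the same peaks as the fold. Late intervals lay 2.01-fold farther from their nearest neighbour of any class, with the longer distance on 20 of 23 (permutation test, adjusted p = 6.67e-05). The chromosomes that broke this pattern were 6, 8 and 10. On chromosome 8 the late median width was 536.5 bp against 496.5 bp for mid late intervals, on chromosome 6 it was 484 against 449 bp, and on chromosome 10 it was 500.5 against 496 bp. The same chromosomes were the ones where late intervals were not farther apart, with late medians of 1575.5 bp on chromosome 8, 2589.5 bp on chromosome 6 and 1830 bp on chromosome 10, against mid late medians of 1630.5, 3243 and 1906 bp. Chromosome 21 alone had the higher fold in the late class, 5.04 against 4.62 for mid late intervals, from only 51 late intervals. These exceptions were named after their values were seen.

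**Figure D2:**
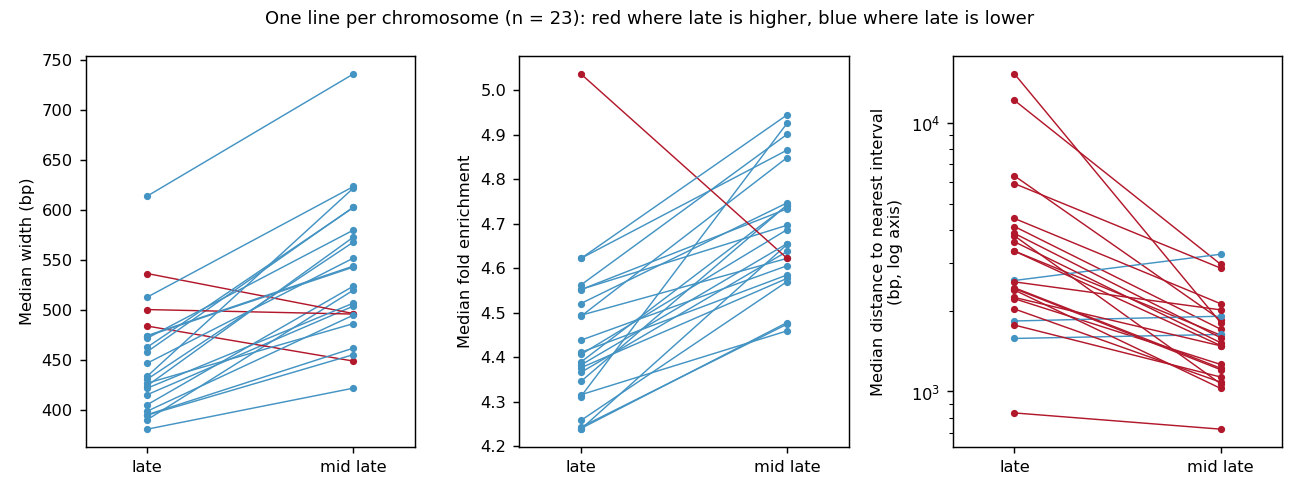
Per-chromosome medians of width (bp), fold enrichment and distance to the nearest interval (bp, log axis) in the late class (left) and the mid late class (right), 1 line for each of 23 chromosomes, red where the late value is higher. Late widths are lower on 20 chromosomes and late folds on 22, while late distances are longer on 20.

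Against the very late class, the last in the order, late intervals were higher in width and fold, by less and on fewer chromosomes. Median widths were 440 ± 40.9 bp for late intervals and 406 ± 78.4 bp for very late ones (mean ± SD over 21 chromosomes), or 1.10-fold, with the late median higher on 16 of 21 (permutation test, adjusted p = 0.0389). Enrichment was 1.02-fold that of very late intervals on average, and higher on 13 of 21 chromosomes (permutation test, adjusted p = 0.0389). Late intervals lay 0.518-fold as far from their nearest neighbour as very late ones, with the distance shorter on 14 of 21 (permutation test, adjusted p = 0.00533). None of the 3 passed without the outer 5 Mb of each chromosome, where the log2 differences were 0.022 for width, 0.015 for fold and −0.72 for distance (permutation tests, adjusted p = 0.778, 0.636 and 0.0568). Width and fold also failed on autosomes only (adjusted p = 0.075 and 0.0621, permutation tests).

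Late intervals also differed in width from both neighbouring classes at like enrichment. When widths were compared within 4 bins cut at the quartiles of late fold, late intervals were still 0.888-fold as wide as mid late intervals and narrower on 19 of 23 chromosomes (permutation test, adjusted p = 1.80e-04). They were 1.11-fold as wide as very late intervals on the same footing, wider on 16 of 21 (permutation test, adjusted p = 0.0107), which was lost without the outer 5 Mb (log2 difference 0.049, adjusted p = 0.575, permutation test). The 3 classes had like widths among the weakest peaks and differed most between 6- and 20-fold, and at 20-fold or more only the very late class stood apart. Below 3-fold the median width was 303 bp for late, 303.5 bp for mid late and 284.5 bp for very late intervals. Between 6- and 10-fold it was 698 bp for late, 881 bp for mid late and 555 bp for very late intervals. At 20-fold or more it was 960 bp for 69 late intervals, 959 bp for 355 mid late intervals and 588 bp for 23 very late ones. Values within fixed bins were not tested.

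Width also followed spacing within the late class. Late intervals with a neighbour within 1 kb (2707 intervals) had a median width of 659 bp and a median fold of 4.89. Those with the nearest neighbour 3 to 10 kb away (1704) had 388 bp and 4.29-fold, and the 566 at 100 kb or more had 298 bp and 4.16-fold. The same decline was present in the other late-replicating classes. Mid late intervals had medians of 749 bp under 1 kb and 293 bp at 100 kb or more, and very late intervals had 596 and 289.5 bp. Within bins cut at the quartiles of late distance, a comparison chosen after the data were examined, late intervals were 0.939-fold as wide as mid late ones (narrower on 18 of 23 chromosomes) and 0.967-fold as enriched (lower on 20 of 23; permutation tests, adjusted p = 0.00338 and 6.50e-04). Both differences were smaller than without the bins. Without the outer 5 Mb neither passed (log2 differences −0.080 and −0.035, adjusted p = 0.0571 and 0.0602, permutation tests). At a −log10 q of 5 or more the difference in fold at like distance was near 0 (log2 −0.010, permutation test, adjusted p = 0.715). Against very late intervals neither width (ratio 1.07) nor fold (ratio 1.01) differed past the threshold at like distance (permutation tests, adjusted p = 0.152 and 0.691).

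**Figure D3:**
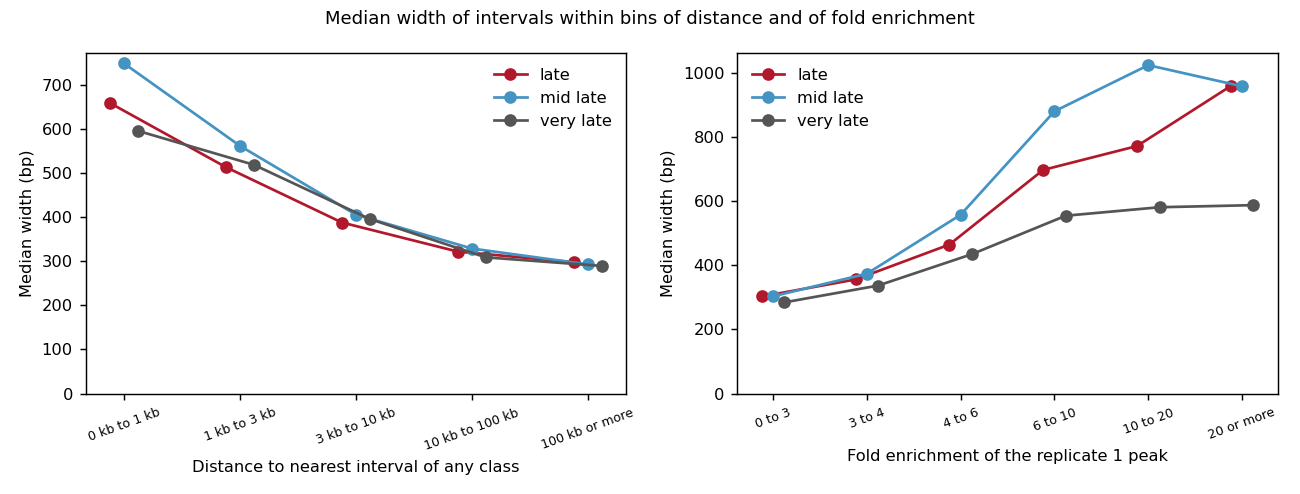
Median width in bp of late (red), mid late (blue) and very late (grey) intervals within bins of the distance to the nearest interval of any class (left) and of fold enrichment (right); lines join the bins of a class. Widths decline with distance and lie between 289.5 and 298 bp at 100 kb or more, while by fold the classes start between 284.5 and 303.5 bp and are farthest apart between 10- and 20-fold, at 772.5, 1025 and 581.5 bp for late, mid late and very late intervals.

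Late intervals held 2 or more shared pieces less often than mid late ones. The peaks of both libraries overlapped in 2 or more separate pieces within 964 late intervals (10.7%), against 15.4% over all classes. Per chromosome the share was 10.7 ± 3.41% in the late class and 14.6 ± 3.18% in the mid late class (mean ± SD, n = 23), lower on 22 of 23 chromosomes (permutation test, adjusted p = 8.89e-05). Against the very late class it was 2.13 percentage points higher, which did not pass (permutation test, adjusted p = 0.0514). The intervals with more pieces were the wide ones. Late intervals with 1 piece (8041) had a median width of 398 bp, those with 2 pieces (772) 1468 bp, those with 3 (126) 2915 bp and those with 4 or more (66) 4903 bp. Width therefore moved with this share, and its part in the difference was not tested. The share of an interval's bases under peaks of both libraries had per-chromosome medians of 59.0 ± 3.26% in late and 59.7 ± 1.92% in mid late intervals (n = 23), which did not differ past the threshold (permutation test, adjusted p = 0.433, difference −0.67 ± 0.77 points, SE), and neither did late and very late intervals (0.89 ± 1.12 points, SE, adjusted p = 0.477, permutation test).

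Chromosomes differed widely in how much of their interval set was late. Chromosome 8 led with 816 of 6495 intervals (12.6%, exact 95% binomial interval 11.8% to 13.4%), followed by chromosome 18 with 368 of 3133 (11.7%) and chromosome 4 with 460 of 4223 (10.9%). Chromosome 19 had the lowest share, 160 of 8675 (1.84%, exact interval 1.57% to 2.15%), then chromosome 17 with 197 of 9828 (2.00%) and chromosome 21 with 51 of 1651 (3.09%). The median over the 23 chromosomes was 5.06%. Chromosomes 17 and 19 are known as gene-rich and chromosomes 4 and 18 as gene-poor. That leaves out chromosomes 8 and 21, which were also at the extremes. A relation of the late share to gene content was not tested. The binomial intervals treat intervals as independent, although 6160 late intervals (68.4%) had a late interval on both sides. Chromosome 3 had the lowest median late width, 381 bp, and chromosome 22 the highest, 614 bp. Median distances were shortest on chromosome 22, at 832 bp, and longest on chromosome X, at 15217 bp. Chromosome X thus combined a late share of 8.29% with the sparsest late intervals, while chromosome 22 had the median late share and the densest.

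**Figure D4:**
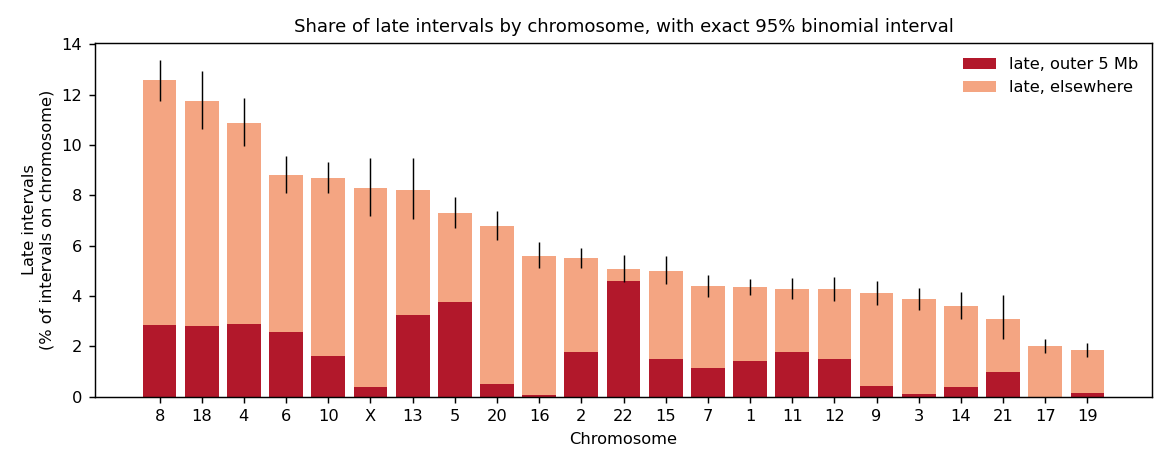
Late intervals as a percentage of all intervals on each chromosome, ordered from the highest share to the lowest; dark red marks those in the outer 5 Mb, light red those elsewhere, and lines are exact 95% binomial intervals of the total. Shares run from 12.6% on chromosome 8 to 1.84% on chromosome 19, and on chromosome 22 nearly the whole late share lies in the outer 5 Mb.

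Late intervals were unevenly spread over the genome. They occupied 1113 of the 2842 windows of 1 Mb that held any interval (39.2%), with a median of 3 late intervals per window, and 272 windows held only 1. The 103 richest windows held 50.1% of the class. Late was the most common class in 359 windows and the only class in 82. Windows with late intervals held a median of 12 intervals of all classes, against 42 in windows without. The window richest in late intervals was 48 to 49 Mb of chromosome 22 (positions 48000001 to 49000000), where 177 of 216 intervals were late, 30 were mid late and 9 very late. The next were positions 140000001 to 141000000 of chromosome 8, with 141 late of 199 intervals, and positions 2000001 to 3000000 of chromosome 5, with 125 of 155. The leading windows, all dense in late intervals, had median late widths of 664, 679 and 488 bp. Adjacent windows also ranked high, with 90 late intervals in the next window on chromosome 22 and 93 in the next on chromosome 5.

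Late intervals near chromosome ends were wider, more enriched and closer together than late intervals elsewhere. The outer 5 Mb reach inward from the outermost intervals of any class on a chromosome. They held 2383 late intervals (26.4% of the class), against 28.02% of mid late, 22.2% of very late and 18.5% of all intervals. The other classes also had higher median widths and folds and shorter median distances there. Mid late intervals, for example, had medians of 743 bp and 5.20-fold in the outer 5 Mb and 478 bp and 4.52-fold elsewhere, so this pattern was not particular to the late class. Within the late class, the median width was 632 ± 157 bp in the outer 5 Mb and 404 ± 58.0 bp elsewhere (mean ± SD, n = 19 chromosomes), a ratio of 1.54, wider on 16 of 19 (permutation test, adjusted p = 8.89e-05). The fold was 4.83 ± 0.47 in the outer 5 Mb and 4.29 ± 0.26 elsewhere, higher on 17 of 19 (permutation test, adjusted p = 8.89e-05). Distances had medians over chromosomes of 1575 bp in the outer 5 Mb and 4416 bp elsewhere, 0.291-fold on average and shorter on 15 of 19 (permutation test, adjusted p = 2.73e-04). At like distance, outer late intervals were still 1.26-fold wider (wider on 15 of 18 chromosomes, permutation test, adjusted p = 0.00295, chosen after the data were examined). With only peaks at a −log10 q of 5 or more, the difference in fold was not past the threshold (log2 0.056, adjusted p = 0.156, permutation test).

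The contrast between late and mid late was present near the ends as well. In the outer 5 Mb the late class had 0.823-fold the width of the mid late class (narrower on 14 of 19), 0.931-fold its enrichment (lower on 17 of 19) and 1.62-fold its distance (longer on 17 of 19; permutation tests, adjusted p = 0.00442, 0.0024 and 0.00121). Outer late intervals, however, exceeded mid late intervals elsewhere on the chromosome. Averaged over the 19 chromosomes, they were 1.32-fold as wide (632 ± 157 against 474 ± 93.3 bp, wider on 16). They were also 1.07-fold as enriched (higher on 14) and 0.632-fold as distant (closer on 12; permutation tests, adjusted p = 0.00255, 0.00442 and 0.0248). The excess in fold did not pass at a −log10 q of 5 or more (log2 0.033, permutation test, adjusted p = 0.194). These comparisons were chosen after the data were examined. Chromosomes 13, 14, 15, 21 and 22 are acrocentric, with a short arm of repeated sequence, so their first intervals are not at a mapped end of the chromosome arm but near the centromere. Counting from the last interval only, with all other intervals as elsewhere, the outer late class stayed wider than other late intervals (log2 0.38 in place of 0.62, permutation test, adjusted p = 0.0189), but it no longer passed against mid late intervals elsewhere in width, fold or distance (log2 0.19, 0.057 and −0.21; permutation tests, adjusted p = 0.25, 0.254 and 0.613). Distance within the outer 5 Mb was then also not past the threshold between late and mid late intervals (log2 0.57, permutation test, adjusted p = 0.055).

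**Figure D5:**
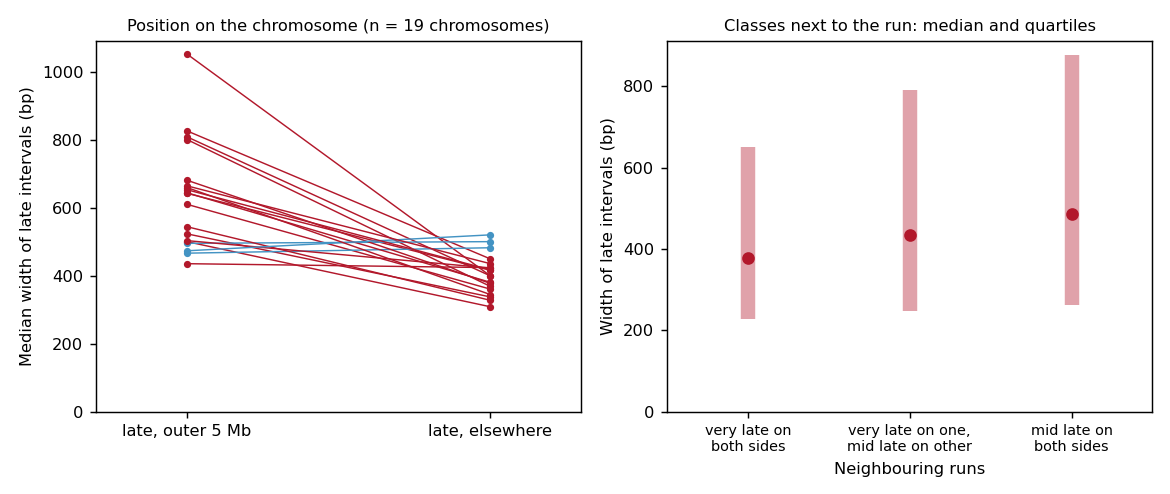
Left, median width in bp of late intervals in the outer 5 Mb and elsewhere, 1 line for each of 19 chromosomes with at least 10 late intervals in both; right, median (point) and quartiles (bar) of late widths in bp by the timing class of the runs on either side. The outer median is higher on 16 of 19 chromosomes, and the median width is 377 bp between very late runs, 435 bp between a very late and a mid late run, and 485 bp between mid late runs.

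Along the chromosome, late intervals formed 1686 uninterrupted runs with a median of 3 intervals over 32.8 kb. Single intervals made up 520 of these runs (30.8%), against 19.4% of mid late and 37.1% of very late runs. Runs of 20 or more were few: 78 runs held 2565 late intervals (28.5%). Such runs held 52.1% of mid late and 40.1% of very late intervals. Each run was described by the classes of the intervals next to it on either side, whatever the gap between them. The timing of the DNA between intervals was not known here. Of the late runs, 828 (49.1%) lay between mid late intervals on both sides, 488 (28.9%) between a mid late and a very late one, and 287 (17.0%) between very late intervals on both sides. The other 83 had another class or the first interval of a chromosome at a border. Late intervals in runs that touched a very late interval were narrower than those between mid late intervals, with 415 ± 100.0 bp against 495 ± 76.1 bp (mean ± SD, n = 21 chromosomes), a ratio of 0.831, lower on 16 of 21 (permutation test, adjusted p = 0.00503). Their fold was 4.32 ± 0.20 against 4.51 ± 0.16, lower on 17 of 21 (permutation test, adjusted p = 0.00317), and at a −log10 q of at least 5 this was not past the threshold (log2 −0.016, adjusted p = 0.484, permutation test). They also lay 2.25-fold as far from their nearest neighbour on average, and farther on 18 of 21 chromosomes (permutation test, adjusted p = 0.00121). At like distance the difference in width did not pass (ratio 0.918, adjusted p = 0.0986, permutation test). The last 2 comparisons were added once the data had been examined.

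The run with most late intervals lay on chromosome 8 from 140566186 to 140953072, where 125 late intervals followed each other over 387 kb between mid late neighbours. Their median width was 721 bp and their median fold 5.06. The next held 72 intervals over 365 kb on chromosome 10, from 49667277 to 50031914, with a highest fold of 14.2 and a median width of 564.5 bp. The third held 66 intervals over 316 kb on chromosome 22, from 48359601 to 48675112, inside the richest window. Both of these ran from a mid late to a very late neighbour. By contrast, the late run with the widest span, named after its values were seen, held only 3 intervals over 4100 kb of chromosome 18, from 36294959 to 40394586, between very late neighbours. These intervals had a median width of 198 bp and none exceeded 3.90-fold.

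The most enriched late intervals were far above the class median and were not the widest. The highest was on chromosome 16 from 23419304 to 23419836, 533 bp wide at 169.8-fold, with the peaks of both libraries over 91.7% of its bases and its nearest neighbour 8254 bp away. The second was on chromosome 1 from 175068406 to 175068890, 485 bp wide at 109-fold, where both libraries covered 98.1%. The third was on chromosome 20 from 23617928 to 23619487, 1560 bp wide at 99.3-fold. Both remaining intervals of the top 5 were on chromosome 22, from 48491579 to 48493479 at 88.3-fold and from 49432608 to 49433554 at 80.9-fold. The first of these stood in the 66-interval run named above. In the second, 47.4% of the bases lay under peaks of both libraries. Late intervals of 20-fold or more numbered 69 of 9005 with a fold (0.766%), against 0.900% of all intervals, and this share was not tested. The share at 10-fold or above was 4.96% in the late class, against 6.83% of the mid late and 4.10% of the very late class.

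The widest late intervals held several shared pieces each, at 4.61- to 14.4-fold. The widest was 14296 bp on chromosome 8, from 47009646 to 47023941, at 6.07-fold, where both libraries overlapped in 9 pieces that covered 38.5% of the bases. The second and the fifth were neighbours on chromosome 1, 350 bp apart. The interval from 2401178 to 2413520 was 12343 bp wide at 7.08-fold, and the interval from 2390184 to 2400827 was 10644 bp wide at 14.4-fold, each with 8 pieces. The third was 11684 bp on chromosome 19, from 37765282 to 37776965, at 4.61-fold, with 15 pieces over 30.3% of its bases, the most pieces in any late interval. The fourth was 11343 bp on chromosome 8, from 143270434 to 143281776, at 11.6-fold, with 4 pieces over 72.6%. Of these 5 intervals, chosen for their width, 3 lay in the outer 5 Mb, and all 5 had a neighbour within 1 kb. Over the whole late class these shares were 26.4% and 30.0%, and the difference was not tested.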

How the data were processed

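Nascent strand DNA of 2 U2OS libraries was analysed as 1 set. Per the submitters' processing notes the authors used BWA, MACS2 and hg19; no label states versions, parameters or a control library. The deposited peak list gives a fold (ratio) enrichment and a −log10 q per replicate 1 peak, cut to the pieces shared with replicate 2; its score was not used. The 6 deposited timing lists give positions only.

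Each name was counted once, with its lowest start and highest end. The fold of an interval is that of the replicate 1 peak with the largest overlap, of 1 bp or more, counted over its pieces shared with replicate 2. Distances always refer to the full set of intervals, also where an alternative drops some. For each comparison, medians were taken on chromosomes with at least 20 intervals on each side (10 for the outer 5 Mb), and the mean log2 ratio (or difference in percentage points) over chromosomes was compared with 100000 random sign flips (two-sided permutation test). Benjamini-Hochberg adjustment ran over 20 planned and, apart, 13 added comparisons. Within bins, the ratios of bins with at least 5 intervals on each side were averaged per chromosome. Chromosomes are not biological replicates. The test was tried on simulated data for the width of late against mid late intervals only, with widths shuffled within each chromosome. Such shuffling does not keep a likeness between neighbouring intervals, and the other comparisons were not simulated. The members, measures and comparisons were chosen with earlier results of these data known. Planned comparisons of base composition were not run, since no sequence of the build was used here. The named intervals are the 5 of highest fold, the 5 widest, the 3 runs with most intervals, the 3 windows with most late intervals, and the 3 chromosomes at each extreme of the late share. Software was matplotlib 3.10.9, scipy 1.17.1, pandas 2.3.3, numpy 2.4.6 and Python 3.11.15.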

Additional observations from a re-analysis of the deposited data

Results flagged for a closer look

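The late list also named 18 intervals on chromosome Y, which is outside the comparisons above, out of 95 intervals of all classes there. They are listed as intervals outside the main measurement, and no level was tested. Whether this line carries a chromosome Y was not examined here, so these 18 intervals are not shown to be sites of initiation. They lay between positions 9943667 and 13470902, at 5.80-fold in the median (2.86- to 10.2-fold) and 431 bp in median width. The late class on the other chromosomes had a median of 4.42-fold. No control library was analysed here.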

How the results depend on the processing

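Of 102 planned recalculations of tests, 89 kept the direction and the side of the threshold, and all those of late against mid late and against the pooled classes in width, fold and distance did, although fold differences were smaller at a −log10 q of at least 5 (−0.035 and −0.040). The number of late intervals was 9012 by lines and 9009 after merging, against 9012. It fell to 3996 with a −log10 q of at least 5. That cut kept 44.3% of late intervals, against 50.6% of mid late and 41.0% of very late ones. The 3 earlier classes kept 50.2% (very early), 54.0% (early) and 54.7% (mid early). Late intervals then made up 4.74% of all intervals, in place of 5.57%. At that cut, late against very late did not pass in width (log2 0.17, adjusted p = 0.0544) or fold (0.031, 0.156; permutation tests), nor did fold by position (0.056) or by run (−0.016), and the share of bases under both libraries' peaks, never past the threshold, changed sign against mid late (0.20 points) and very late (−1.81 points). Late against very late was also lost on autosomes (width 0.12, fold 0.034), for width at 200 bp or more (0.082), and without the outer 5 Mb in width (0.022), fold (0.015), distance (−0.72) and width within fold bins (0.049). Of 70 recalculations of added comparisons or settings, 60 kept both and 8 lost the call; width at like distance against very late turned to −0.0014 without the outer 5 Mb, and width by run at like distance passed at 200 bp or more (−0.15, adjusted p = 0.0295, permutation test). Late against mid late in width within the outer 5 Mb was −0.18 at 200 bp or more, width by position at like distance was 0.51 at the −log10 q cut, and distance by position was −1.15 when counted from the last interval only. The cause was not tested. Leaving out chromosome 3, 14, 16, 21 or X took width against very late past an unadjusted p of 0.05 (up to 0.068, permutation test). Chromosomes 4, 5, 11, 20 or 21 did so for fold (up to 0.069). The share with 2 or more shared pieces against very late had not passed after adjustment. Its unadjusted p of 0.0463 also crossed 0.05 without any 1 of 15 chromosomes (up to 0.090, permutation test). No other planned comparison crossed in this way. No paired analysis was possible because both libraries form 1 group, and neither library could be left out of the intersected set. Read depth is unknown, so what it limits could not be measured.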
